A study of Mus musculus with 11 samples.

Results

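Ketone body synthesis and use in the mouse heart was followed here through 4 genes, the rows named Oxct1, Acat1, Slc16a1 and Bdh1 in the deposited table of 54532 genes. They were chosen by name for their place in the pathway. The table holds bulk RNA sequencing counts of whole hearts from C57BL/6 mice, all labelled 26 weeks, in 3 groups. The chow group has 3 libraries. The HFD+STZ group has 4 libraries, and the labels give its treatment only by these letters, commonly used for a high-fat diet with the beta cell toxin streptozotocin. The third group, called METTL3 below, has 4 libraries from HFD+STZ mice that also received AAV METTL3, by its name a viral vector for the RNA methyltransferase METTL3. Nothing in the labels tells if HFD+STZ animals got a control vector, which promoter drove METTL3, or if every library is its own animal. The p-values therefore reflect only how far these libraries spread, which may be technical.

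Ketone bodies are small acids and ketones that the liver makes from fatty acids during fasting or insulin lack and that the heart burns as fuel. Monocarboxylate transporter 1, encoded by Slc16a1, carries them across the plasma membrane together with lactate and pyruvate. In the mitochondrion, the dehydrogenase encoded by Bdh1 oxidizes 3-hydroxybutyrate to acetoacetate. The transferase encoded by Oxct1 (also called SCOT) moves coenzyme A from succinyl-CoA to acetoacetate and is regarded as the committed step of ketone use. The liver lacks this enzyme. The thiolase encoded by Acat1 splits acetoacetyl-CoA into acetyl-CoA and also serves isoleucine breakdown.

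Total counts ranged from 13900531 to 16952639 per library. The share from mitochondrially encoded genes was 9.28% to 27.4% in chow, 28.6% to 32.5% in HFD+STZ and 37.7% to 45.5% in METTL3. Chow replicate 3 stood apart: it had the share of 9.28% and differed from the other chow libraries by a chi-square per degree of freedom of 304 and 344, against 15.5 to 55.2 for the other pairs within a group. In METTL3, replicates 1 and 3 (19.2) and replicates 2 and 4 (15.5) were closer to each other than the pairs across them (38.6 to 50.1). HFD+STZ replicate 1 also stood apart, at 45.9 to 55.2 from the other HFD+STZ libraries, which were 19.1 to 23.9 from each other. Mettl3 itself had 54 to 152 counts in chow, 63 to 140 in HFD+STZ and 78 to 123 in METTL3. CPM is a gene's count per 1000000 counts of a library, scaled as described in the next paragraph. In CPM, Mettl3 was at 3.04 to 7.88 in chow, 4.39 to 7.82 in HFD+STZ and 6.52 to 10.8 in METTL3. For METTL3 versus HFD+STZ its log2 fold change was 0.40 (SE 0.32, edgeR adjusted p = 0.759), so a rise was not detectable, and the directions given for METTL3 rest on the label. The 8 cardiomyocyte markers had a summed level of 31708 to 44495 CPM across the 11 libraries. The sum hides markers that moved in opposite directions. From HFD+STZ to METTL3, the mean of Myh6 went from 15224 to 9591 CPM and that of Actc1 from 8447 to 11330 CPM. In chow replicate 3, Myh6 was at 6021 CPM, against 16165 and 15282 CPM in chow replicates 1 and 2. Tnni3 was at 9102 CPM there, against 2253 and 2947 CPM. The fibroblast gene Col3a1 was at 363 CPM in HFD+STZ replicate 1 and at 75.5 to 139.8 CPM in the other HFD+STZ libraries. Of the other fibroblast markers, Dcn, Col1a1 and Tcf21 were also highest in that library within the group. Pdgfra, at 54.9 CPM there, lay within the 48.5 to 73.3 CPM of the other HFD+STZ libraries.

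None of the 4 genes passed the test in any of the 3 comparisons. Of all genes tested, 0.168% passed in HFD+STZ versus chow, 0% in METTL3 versus HFD+STZ and 3.2% in METTL3 versus chow. Of the 4 genes, Acat1 was the nearest: all 4 HFD+STZ and all 4 METTL3 libraries lay above all 3 chow libraries, at 1.72-fold and 1.63-fold. Slc16a1 was 1.37-fold higher in METTL3 than in HFD+STZ, again without overlap. Oxct1 and Bdh1 overlapped between all groups. In the same order of comparisons, groups did not overlap for 10.4%, 9.57% and 18.7% of all genes tested. Of the other pathway genes listed, Acaa2 and Ppargc1a passed the test in METTL3 versus chow, at 1.84-fold and 2.73-fold higher. Tests are quasi-likelihood fits in edgeR, and p-values were adjusted over 14862 genes by the Benjamini-Hochberg method, with a threshold of 0.05. Levels within a gene are CPM on library sizes scaled by TMM, a method that lines up the bulk of the genes between libraries. In bulk tissue, fewer cells of a type and less RNA per cell cannot be told apart.

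Per length, the 4 genes were well expressed. In TPM (counts divided by gene length and then scaled to one fixed sum within each library), Oxct1 had a mean level of 457 over the 11 libraries (range 295 to 826), the 98.9th percentile of the genes tested. Acat1 had a mean level of 297 TPM (210 to 395), Slc16a1 of 120 TPM (92.0 to 200.1) and Bdh1 of 32.9 TPM (17.4 to 63.0). Oxct1 led in 10 of the 11 libraries. In HFD+STZ replicate 3, Acat1 at 377 TPM was above Oxct1 at 368 TPM. Slc16a1 lay below both and above Bdh1 in every library, with no overlap of ranges. TPM values also move with the mitochondrial share, so they are used only between genes. Counts of the 4 genes ran from 532 to 21474 per library, where counting error alone has an SD of 4.34% and 0.682%.

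Slc16a1 (ENSMUSG00000032902) lies on the plus strand of mm10 chromosome 3, 104638668 to 104658462. Oxct1 (ENSMUSG00000022186) lies on the plus strand of chromosome 15, 4026383 to 4155344, and overlaps the minus-strand transcripts BC037032 and Gm15632. The upstream sequences of the transporter and of the committed enzyme are shown because these genes stand for uptake and for the committed step of use. Each is 200 bases, 5′ to 3′, from 250 to 51 bases before the RefSeq start (GRCm38.p6, the mm10 build, plus strand), and capitals mark motif matches.
Slc16a1, chr3:104638414-104638613: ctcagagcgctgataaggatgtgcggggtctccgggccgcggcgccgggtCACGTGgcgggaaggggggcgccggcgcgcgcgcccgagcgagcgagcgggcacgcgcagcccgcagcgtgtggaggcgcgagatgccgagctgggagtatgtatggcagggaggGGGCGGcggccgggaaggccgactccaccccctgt
Oxct1, chr15:4026178-4026377: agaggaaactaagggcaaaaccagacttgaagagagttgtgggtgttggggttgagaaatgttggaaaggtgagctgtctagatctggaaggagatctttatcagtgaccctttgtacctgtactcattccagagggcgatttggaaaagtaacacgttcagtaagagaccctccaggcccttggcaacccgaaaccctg
The Slc16a1 window is 76.0% G or C and holds the E-box CACGTG, starting 200 bases before the start, and the GC box GGGCGG, starting 85 bases before it. The Oxct1 window is 48.0% G or C, near the median of 51.5% over 32851 RefSeq promoters, and holds none of the 7 motifs searched on both strands. Of all promoters, 4.34% hold the E-box in this window and 24.6% the GC box. The other motifs were CCAAT (28.4%), TATAAA (9.14%), the nuclear receptor half-site AGGTCA (11.4%), its direct repeat with 1 base between, which contains the half-site (0.024%), and the NRF1 core (2.24%). The 2 windows listed for Bdh1 also hold none of the 7. RefSeq windows matched 3 of the 4 genes, and Acat1 is named only. In the longest coding transcript, GGACT, a common form of the sequence METTL3 methylates, occurs 7 times in Acat1 (2.06 per kb), 5 times in Bdh1 (1.60 per kb), 5 times in Slc16a1 (1.13 per kb) and 2 times in Oxct1 (0.57 per kb). The median over 13121 genes is 1.05 per kb, so the 4 genes lie on both sides of it.

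**Figure D1:**
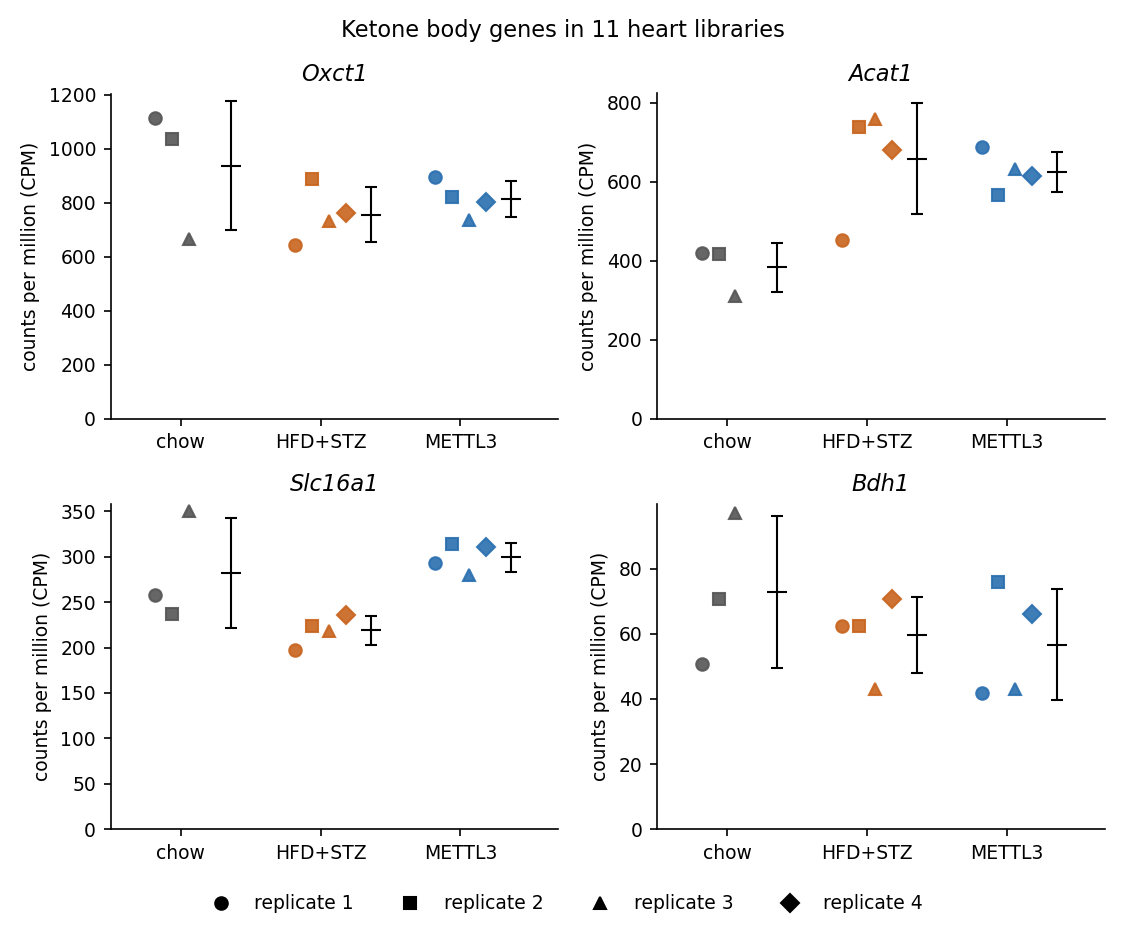
Level of each of the 4 genes in CPM on TMM-scaled library sizes (vertical axes, from 0) in the 3 chow, 4 HFD+STZ and 4 METTL3 libraries; symbols mark the replicate, and the bar with whiskers gives the mean and SD. Acat1 is higher in all HFD+STZ and METTL3 libraries than in all chow libraries, Slc16a1 is lowest in HFD+STZ, and Oxct1 and Bdh1 overlap.

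For uptake, Slc16a1 was at 258, 237 and 351 CPM in chow. It was at 198, 224, 218 and 236 CPM in HFD+STZ, and at 293, 314, 280 and 310 CPM in METTL3. Every HFD+STZ library was below every chow and METTL3 library, though HFD+STZ replicate 4 and chow replicate 2 were nearly at the same level. Means were 282 ± 60.6 (SD, n = 3), 219 ± 16.1 (SD, n = 4) and 299 ± 15.9 (SD, n = 4) CPM. METTL3 versus HFD+STZ gave a log2 fold change of 0.45 (SE 0.16, 95% interval 0.10 to 0.80, edgeR adjusted p = 0.447). In that comparison edgeR called 0% of all genes and DESeq2 129. Groups did not overlap for 9.57% of genes and 9.06% had an unadjusted p under 0.05, and 1 of the 4 genes, Slc16a1, met each of these. Leaving out any one library kept its value between 0.40 and 0.48, and the libraries with sample codes 25 to 33 alone gave 0.38. When genes were split by GC content into 5 equal groups, the group with the lowest GC, where Slc16a1 lies (42.9%), had a median log2 fold change of 0.29 in this comparison. The mitochondrial share moved with it too, and the part of either in the result was not tested.

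Between HFD+STZ and chow, Slc16a1 had a log2 fold change of -0.36 (SE 0.17, 95% interval -0.74 to 0.01, edgeR adjusted p = 0.418). Without chow replicate 3, its highest library, the value was -0.17 (adjusted p = 0.790). Between METTL3 and chow it was 0.09 (SE 0.17, adjusted p = 0.819), and without chow replicate 3 it was 0.27. The 95% interval of that difference with all libraries was -0.29 to 0.46.

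Bdh1 (ENSMUSG00000046598, plus strand of chromosome 16, 31422280 to 31458901), the first oxidation, was the least abundant of the 4. Its SD was 31.9%, 19.6% and 30.1% of its mean in chow, HFD+STZ and METTL3. It overlaps the antisense gene Gm15743. Levels were 50.7, 70.7 and 97.0 CPM in chow, 62.3, 62.4, 43.1 and 70.8 CPM in HFD+STZ, and 41.7, 75.9, 42.9 and 66.1 CPM in METTL3. In METTL3, replicates 1 and 3 were low and replicates 2 and 4 high, the same pairing that the libraries showed over all genes. Means were 72.8 ± 23.3 (SD, n = 3), 59.7 ± 11.7 (SD, n = 4) and 56.6 ± 17.1 (SD, n = 4) CPM. The log2 fold change was -0.29 (SE 0.27, 95% interval -0.87 to 0.30, edgeR adjusted p = 0.662) for HFD+STZ versus chow. It was -0.08 (SE 0.25, adjusted p = 0.960) for METTL3 versus HFD+STZ and -0.36 (SE 0.27, adjusted p = 0.468) for METTL3 versus chow. Chow replicate 3 was the highest library, and without it the values against chow were -0.02 for HFD+STZ and -0.11 for METTL3. Without chow replicate 1 they were -0.47 and -0.57.

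Oxct1, the committed step, was at 1113, 1037 and 664 CPM in chow. It was at 642, 887, 731 and 763 CPM in HFD+STZ, and at 896, 821, 735 and 804 CPM in METTL3. A pair of chow libraries was above every other library, and chow replicate 3 was below all but 1 of them. Means were 938 ± 240 (SD, n = 3), 756 ± 101 (SD, n = 4) and 814 ± 66.2 (SD, n = 4) CPM. Against chow, the log2 fold change was -0.31 (SE 0.21, 95% interval -0.76 to 0.13, edgeR adjusted p = 0.540) in HFD+STZ and -0.20 (SE 0.21, adjusted p = 0.608) in METTL3. Without chow replicate 3 these were -0.50 (adjusted p = 0.269) and -0.41 (adjusted p = 0.162). Without chow replicate 1 they were -0.16 and -0.07. Between METTL3 and HFD+STZ the value was 0.11 (SE 0.19, 95% interval -0.31 to 0.52, adjusted p = 0.915).

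Acat1 (ENSMUSG00000032047, minus strand of chromosome 9, 53580522 to 53610382), the last step before acetyl-CoA, was at 419, 418 and 312 CPM in chow. It was at 454, 739, 759 and 681 CPM in HFD+STZ, and at 688, 566, 633 and 614 CPM in METTL3. All 8 HFD+STZ and METTL3 libraries were above the 3 chow libraries, with HFD+STZ replicate 1 the closest to them. Means were 383 ± 61.6 (SD, n = 3), 658 ± 140 (SD, n = 4) and 625 ± 50.7 (SD, n = 4) CPM. For HFD+STZ versus chow, the log2 fold change was 0.78 (SE 0.21, 95% interval 0.32 to 1.24, edgeR adjusted p = 0.196). In this comparison edgeR called 0.168% of all genes, 12.1% had an unadjusted p under 0.05 and 10.4% had groups without overlap. Of the 4 genes, none was called, Acat1 alone had an unadjusted p under 0.05, and Acat1 and Slc16a1 had groups without overlap. Without chow replicate 3, the lowest library, the Acat1 value was 0.66 (adjusted p = 0.223). Without HFD+STZ replicate 1 it was 0.92 (adjusted p = 0.0312), and DESeq2 gave 0.79 (adjusted p = 0.00964). Under those last 2 settings the calls over all genes also rose, from 25 to 215 and 305, and over single libraries left out they ran from 1 to 215.

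For METTL3 versus chow, Acat1 had a log2 fold change of 0.71 (SE 0.21, 95% interval 0.25 to 1.16, edgeR adjusted p = 0.0838). Here edgeR called 3.2% of all genes, 21.7% had an unadjusted p under 0.05 and 18.7% had groups without overlap. Of the 4 genes none was called, and Acat1 alone met the other 2 marks. Without chow replicate 3 the value was 0.57 (adjusted p = 0.114). Without HFD+STZ replicate 1, which is in neither group compared but enters the joint fit, the adjusted p was 0.0459, and with DESeq2 it was 0.0124. Under these last 2 settings the calls over all genes were 506 and 1509, against 475. These 2 comparisons share the chow libraries. The 5 macrophage markers summed to 144 to 272 CPM in chow against 53.6 to 187 CPM in the other groups, the 5 adipocyte markers to 4.17 to 9.22 CPM against 0.0783 to 4.69 CPM, and the mitochondrial share was lower in chow. The sums hide markers that went the other way between chow and HFD+STZ. Cd163 of the macrophage list averaged 25.8 and 34.9 CPM, and Lep of the adipocyte list 0.035 and 0.155 CPM. The part of these cell types and of the mitochondrial share in the Acat1 values was not tested. All chow libraries have sample codes of 78 to 98, as have only HFD+STZ replicate 1 and METTL3 replicate 4, so the code range and the chow group are largely confounded. With the code range as a covariate, Acat1 stood at 0.51 (adjusted p = 0.931) and 0.46 (adjusted p = 0.418). Within that code range, Acat1 was at 454 CPM in HFD+STZ replicate 1, 614 CPM in METTL3 replicate 4 and 312 to 419 CPM in chow. With 1 library of each treated group there, a comparison within the range was not tested. Between METTL3 and HFD+STZ the value was -0.07 (SE 0.19, 95% interval -0.49 to 0.34, adjusted p = 0.947), and without HFD+STZ replicate 1 it was -0.22. The 4 genes' median log2 fold changes were -0.30, 0.02 and -0.06 in HFD+STZ versus chow, METTL3 versus HFD+STZ and METTL3 versus chow, beside -0.02, -0.00364 and -0.01 over all genes tested.

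**Figure D2:**
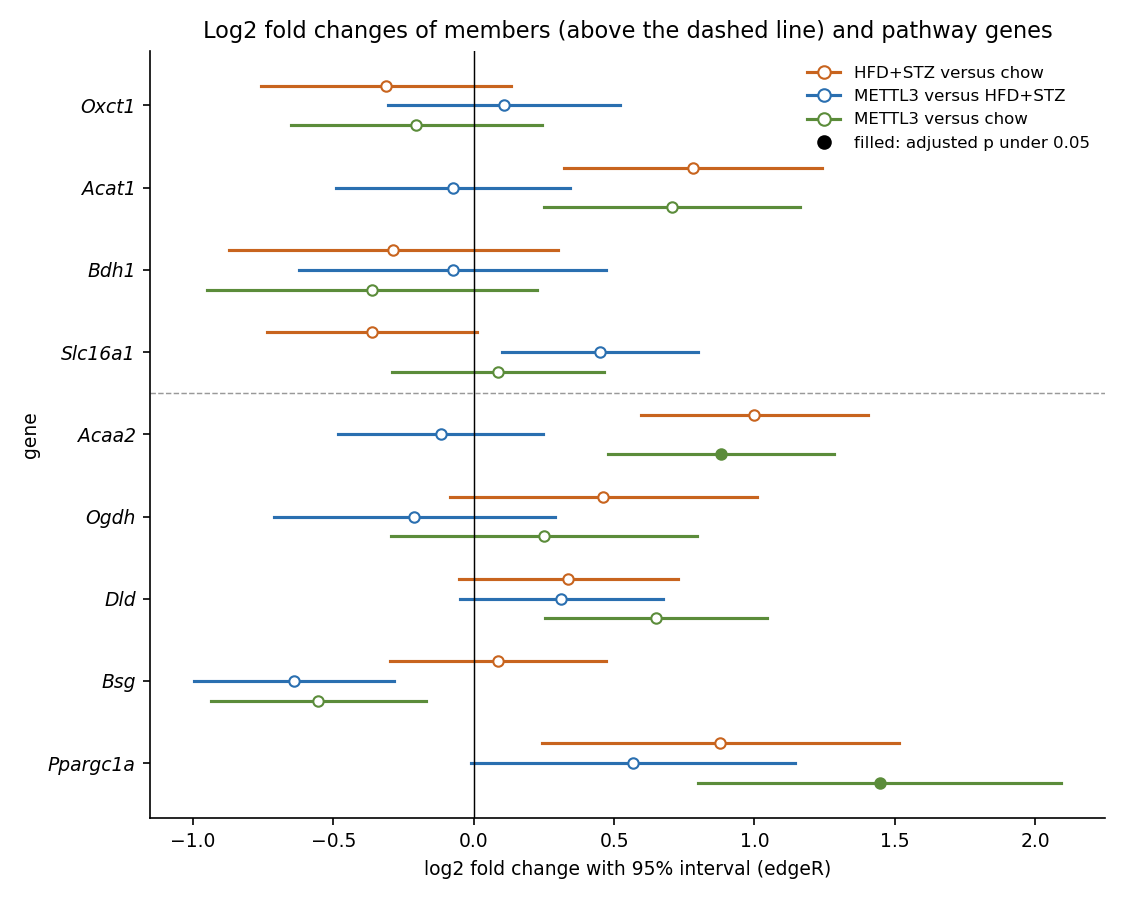
Log2 fold change from edgeR with its 95% interval for the 4 genes and other genes of the pathway in the 3 comparisons; filled points have an adjusted p under 0.05, and a dashed line separates the 4 genes from the rest. No filled point belongs to the 4 genes, and the filled points are Acaa2 and Ppargc1a in METTL3 versus chow.

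A ratio of 2 genes within a library does not depend on how libraries are scaled, so the 4 genes were also set against each other. There were 0 of 18 differences past an adjusted p of 0.05, over 6 pairs and 3 comparisons, by a two-sided exact permutation test. Its smallest possible p is 0.0286, which 5 of the 18 reached, at an adjusted p of 0.103. After adjustment, a difference at that p passes only if most of the 18 reach it too, so the 0 says little. The count of Oxct1 over that of Acat1 was 2.66, 2.48 and 2.13 in chow. It was 1.42, 1.20, 0.963 and 1.12 in HFD+STZ and 1.30, 1.45, 1.16 and 1.31 in METTL3. Every HFD+STZ and METTL3 library lay below every chow library, chow replicate 3 included. The log2 difference was -1.05 for HFD+STZ versus chow, 0.482 of the chow ratio, and -0.89 for METTL3 versus chow, 0.540 of it (exact permutation p = 0.0286, adjusted p = 0.103 for both). Leaving out any one library kept these between -1.15 and -0.96, and between -0.98 and -0.82. The ratio largely restates the Acat1 values: against chow, log2 fold changes were 0.78 and 0.71 for Acat1 and -0.31 and -0.20 for Oxct1. How often ratios of other gene pairs leave no overlap was not counted, for this ratio or those below. Among single genes, groups did not overlap for 10.4% and 18.7% in these 2 comparisons. HFD+STZ replicate 1 and METTL3 replicate 4, which share the code range of the chow libraries, had Oxct1 to Acat1 ratios of 1.42 and 1.31. With 1 library of each group there, the part of the code range was not tested. Between METTL3 and HFD+STZ the difference was 0.16 (exact permutation p = 0.286, adjusted p = 0.468).

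The ratio of Acat1 to Slc16a1 was 1.62, 1.77 and 0.889 in chow, 2.29, 3.30, 3.48 and 2.88 in HFD+STZ, and 2.35, 1.80, 2.26 and 1.98 in METTL3. All 8 treated libraries were above chow, by a log2 difference of 1.11 in HFD+STZ and 0.61 in METTL3 (exact permutation p = 0.0286, adjusted p = 0.103 for both). Without chow replicate 3 the METTL3 value was 0.30. The ratio of Oxct1 to Slc16a1 was 3.25, 3.96, 3.35 and 3.23 in HFD+STZ and 3.06, 2.62, 2.63 and 2.59 in METTL3. Every METTL3 library was below every HFD+STZ library, by a log2 difference of -0.34 (exact permutation p = 0.0286, adjusted p = 0.103). In chow this ratio was 4.31, 4.38 and 1.89, a spread that held both other groups. Ratios do not remove shifts tied to GC content. In METTL3 versus HFD+STZ, the GC group of Slc16a1 had a median log2 fold change of 0.29 and that of Oxct1 and Acat1 0.10. The part of this in the ratios was not tested. The other pairs all involve Bdh1 and overlapped between groups, with adjusted p from 0.171 upward.

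**Figure D3:**
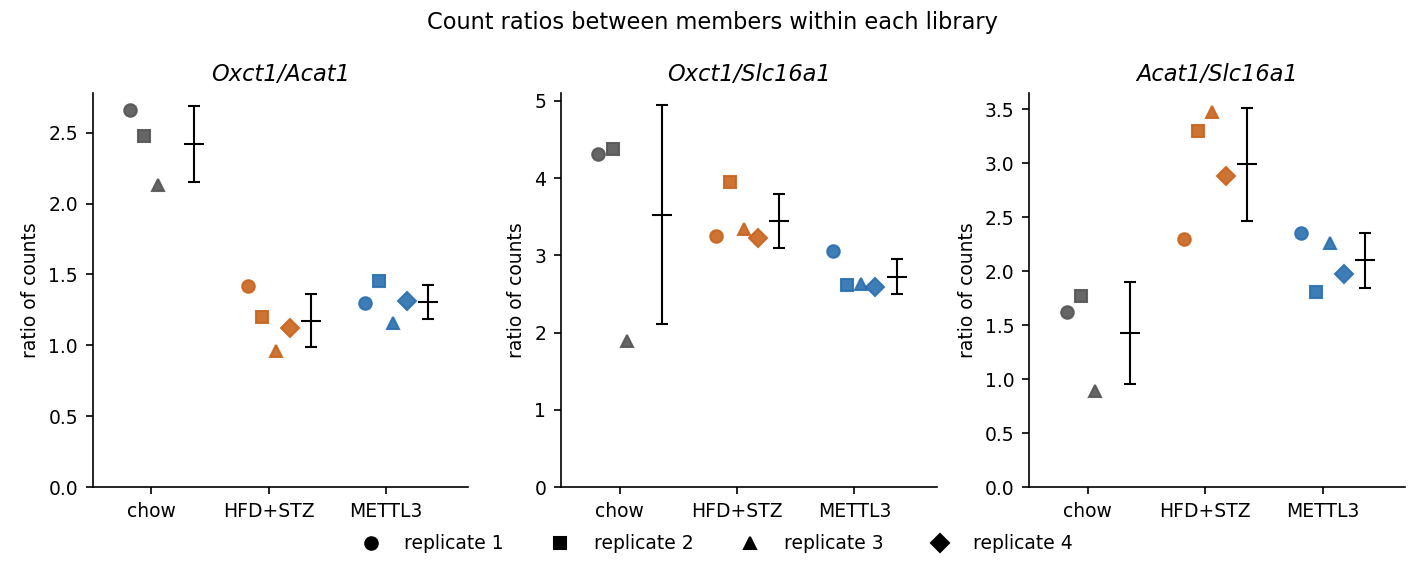
Ratio of counts within each library (vertical axes, from 0) for 3 pairs of the 4 genes in the 3 groups; symbols mark the replicate, and the bar with whiskers gives the mean and SD. The Oxct1 to Acat1 ratio is 2.13 to 2.66 in chow and 0.963 to 1.45 in the 8 HFD+STZ and METTL3 libraries, with no overlap.

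Beyond the 4 genes, 26 genes of the pathway were listed and 19 passed the filter on low counts. None was called in HFD+STZ versus chow or METTL3 versus HFD+STZ by edgeR, and 3 and 2 had an unadjusted p under 0.05, beside 12.1% and 9.06% of all genes. DESeq2 called 1 and 1, Acaa2 and Bsg, beside 305 and 129 of the 14862 genes. In METTL3 versus chow, 2 of the 19 were called, both higher, beside 1.82% of all genes called higher. At an unadjusted p under 0.05, 3 of the 19 were higher and 1 lower, beside 21.7% of all genes. Groups did not overlap for 3 that were higher and 2 that were lower, beside 18.7% of all genes. The median log2 fold changes of the 19 were 0.28, -0.14 and 0.12 in the order above.

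Acaa2, a mitochondrial thiolase of fatty acid oxidation, was at 605, 595 and 750 CPM in chow, 1033, 1461, 1427 and 1281 CPM in HFD+STZ, and 1262, 1195, 1154 and 1183 CPM in METTL3. The treated groups were above chow in all 8 libraries. Acaa2 rose by a log2 fold change of 0.88 (SE 0.19, edgeR adjusted p = 0.0316) in METTL3 versus chow. In HFD+STZ versus chow it was 1.00 (SE 0.19) and missed with an adjusted p of 0.05001. Ppargc1a, a coactivator that promotes mitochondrial genes, was at 77.5, 49.4 and 43.5 CPM in chow, 55.4, 118, 128 and 117 CPM in HFD+STZ, and 178, 121, 144 and 175 CPM in METTL3. It rose by 1.45 (SE 0.30, edgeR adjusted p = 0.0299) in METTL3 versus chow, where the groups did not overlap. Ppargc1a (41.7% GC) and Dld (40.6% GC) lie in the group of genes with the lowest GC content, whose median log2 fold change in METTL3 versus chow was 0.29, and the part of this was not tested. In HFD+STZ versus chow, where HFD+STZ replicate 1 lay within the chow range, it was 0.88 (SE 0.29, adjusted p = 0.290). Neither call held without METTL3 replicate 1, 3 or 4 or chow replicate 2, and without HFD+STZ replicate 4 only that of Ppargc1a did. Without METTL3 replicate 2 that of Acaa2 was lost. With the code range as a covariate neither held, and Acaa2 stood at 0.72 (adjusted p = 0.194).

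**Figure D4:**
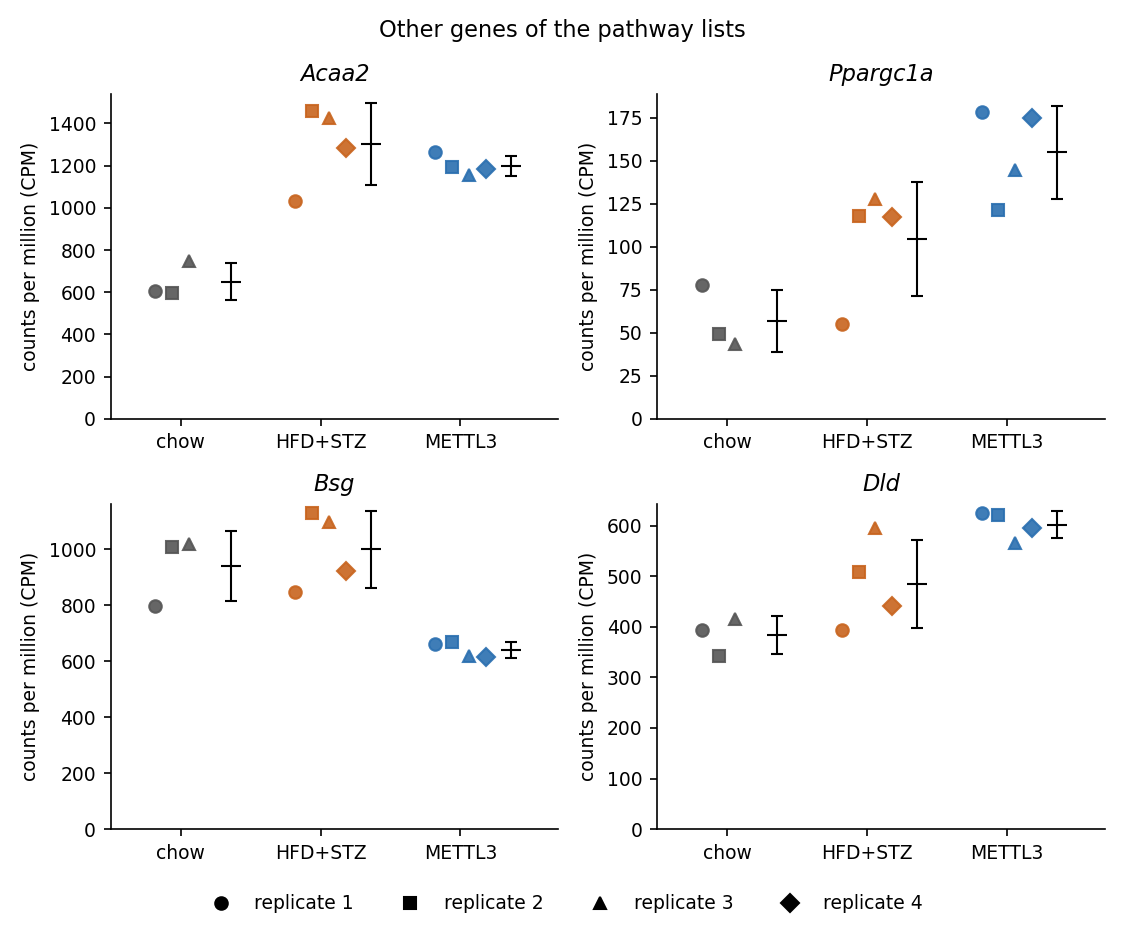
Level of Acaa2, Ppargc1a, Bsg and Dld in CPM on TMM-scaled library sizes (vertical axes, from 0) in the 3 groups; symbols mark the replicate, and the bar with whiskers gives the mean and SD. Acaa2 is at most 750 in chow and at least 1033 elsewhere, and Bsg is 616 to 668 in METTL3, below all other libraries.

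The 6 genes for the supply and use of succinyl-CoA, the partner in the Oxct1 reaction, had no calls. Their log2 fold changes were 0.14 to 0.46 in HFD+STZ versus chow, -0.22 to 0.31 in METTL3 versus HFD+STZ and 0.09 to 0.65 in METTL3 versus chow. Ogdh, a subunit of the oxoglutarate dehydrogenase complex, averaged 1692 ± 556 (SD, n = 3), 2331 ± 401 (SD, n = 4) and 2013 ± 255 (SD, n = 4) CPM. Dld, the complex's shared dihydrolipoamide dehydrogenase, came nearest to a call, at 0.65 (SE 0.18, edgeR adjusted p = 0.0692) in METTL3 versus chow. Over the 11 libraries left out singly, its edgeR adjusted p ran from 0.0427, without chow replicate 3, to 0.173, and 1 of these passed. Without chow replicate 3 the calls over all genes also rose, from 475 to 750. Dlst, another subunit of that complex, averaged 407 ± 111 (SD, n = 3), 528 ± 110 (SD, n = 4) and 454 ± 89.7 (SD, n = 4) CPM. Sucla2, a succinyl-CoA ligase subunit, averaged 504 ± 49.8 (SD, n = 3), 556 ± 76.6 (SD, n = 4) and 536 ± 69.9 (SD, n = 4) CPM.

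Among other transport genes, Bsg encodes basigin, the chaperone that brings the Slc16a1 product to the membrane. It was at 796, 1008 and 1018 CPM in chow, 847, 1130, 1098 and 922 CPM in HFD+STZ, and 663, 668, 617 and 616 CPM in METTL3. Every METTL3 library was below every other library, in the direction opposite to Slc16a1 between METTL3 and HFD+STZ. That log2 fold change was -0.64 (SE 0.17, 95% interval -0.997 to -0.28, edgeR adjusted p = 0.350), and DESeq2 gave -0.66 (adjusted p = 0.00523). The group of genes with the highest GC content, where Bsg lies (57.6%), had a median of -0.23. The summed level of the 5 macrophage markers was 95.6 to 187 CPM in HFD+STZ and 53.6 to 92.2 CPM in METTL3. The part of either in the result was not tested. Of the 7 transport genes listed beside Slc16a1, 5 were tested and none was called. Other carriers were scarce: Slc16a6 averaged 4.84 ± 1.90, Slc16a7 4.31 ± 2.04 and Slc16a3 2.39 ± 0.888 CPM (SD, n = 11). Of the ketone body receptors, Hcar2 had at most 5 counts in a library and Ffar3 had 0 in all 11. Over the pooled total that allows up to 0.0179 CPM, from counting error only. Oxct2a and Oxct2b, close relatives of Oxct1, also had 0 counts in all 11 libraries.

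The genes whose log2 CPM ran most like each of the 4 over the 11 libraries were listed among 9761 genes, as a description in which all points share libraries and groups. For Acat1, Pearson's r was 0.986 with Cited2 and 0.978 to 0.979 with Pnpla2, Cat, Hadh and Pdzrn3. For Oxct1 the best were Parp3 (0.853), Exoc8 (0.851), Efcab2 (0.830), Hk2 (0.815) and Orai3 (0.814). For Slc16a1 they included Larp4b (0.929), Miga1 (0.901), Srek1ip1 (0.896) and Rmi1 (0.892). For Bdh1 they included Nfkbib (0.943), Ifi35 (0.916), Cdk11b (0.912) and Mum1 (0.908). Between the 4 genes themselves, Oxct1 had r of -0.02 with Acat1 and -0.02 with Slc16a1, and Bdh1 had r of -0.58 with Acat1.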

How the data were processed

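RNA was taken from flash-frozen whole hearts with Trizol, ribosomal RNA was depleted, and 11 libraries were sequenced, per the labels' protocols. Salmon, FastQC and mm10 are listed, without versions, per the submitters' processing notes. For the counter's settings, annotation release and strand use, nothing was stated in the sources at hand. The authors deposited whole-number counts per gene with gene lengths; 27293 of 54532 genes were 0 in all libraries. Of the gene identifiers, 54409 were in GENCODE M21. Columns were matched to samples by the code in each description label.

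Genes were filtered with filterByExpr (minimum count 10, minimum total 15), scaled with TMM and fitted with edgeR 4.0.16 in R 4.3.3, all 11 libraries in 1 model of group means with no block. Test calls are Benjamini-Hochberg adjusted p under 0.05 over 14862 genes, and intervals are 95%. DESeq2 1.42.0 was an alternative, as were other scalings and filters, a replicate block, the code range as covariate and leaving out libraries. CPM (on TMM-scaled library sizes), TPM and log2 CPM (prior count 2) were computed here. Ratios were tested with a two-sided exact permutation test over libraries. The edgeR script was tested on simulated data.

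All 4 genes are given in full. From each pathway list, genes past the threshold in any comparison are named, and otherwise up to 4 with the highest mean CPM. Genes most like a member are the 5 with the highest Pearson r among genes of at least 5 CPM. Acat2 and Ppara are named beyond this rule. Some genes of the lists are not reported here. The members, lists and rules were chosen with earlier results of these data known. Same-numbered libraries did not deviate together (r from -0.229 to 0.163), so the numbers were not treated as pairs.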

Additional observations from a re-analysis of the deposited data

Results flagged for a closer look

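Of 28 groups of 4 libraries checked for 1 library far from the others, 3 stood out; chance alone would flag about 1 in 20. Ppargc1a was at 55.4 CPM in HFD+STZ replicate 1, against 117 to 128 CPM in the other HFD+STZ libraries. The ratio of Oxct1 to Slc16a1 counts was 3.96 in HFD+STZ replicate 2, against 3.23 to 3.35 in the others. The same ratio was 3.06 in METTL3 replicate 1, against 2.59 to 2.63 in the others. The 3 values belong to 3 different libraries.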

How the results depend on the processing

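The number of the 4 genes past the threshold was 0 in METTL3 versus HFD+STZ under all 22 alternatives. In HFD+STZ versus chow and in METTL3 versus chow it became 1, Acat1, with DESeq2 and with chow replicate 3 and HFD+STZ replicate 1 both left out, and ranged from 0 to 1 over single libraries left out. Ratios gave 0 throughout 12 alternatives, and with a library left out the lowest adjusted p was 0.15. With so few libraries a difference could pass only if most reached the smallest possible p together, if at all. The 0 therefore says nothing of stability. Among pathway genes, HFD+STZ versus chow went from 0 to 1 with DESeq2, 1 without a filter, 1 with a stricter filter (minimum count 50) and 2 with both libraries out, and ranged from 0 to 2 over single libraries. METTL3 versus HFD+STZ went from 0 to 1, Bsg, with DESeq2 and with both libraries out. METTL3 versus chow went from 2 to 4 with DESeq2 and with both out, to 1 without a filter, to 0 with only the groups compared and 0 with the code range as covariate, and ranged from 0 to 4 over single libraries. The cause was not tested. Pathway gene counts under the alternatives were added after seeing the data.

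With the replicate number as a block, the pathway count in METTL3 versus chow was 0, the log2 fold change of Acaa2, METTL3 versus chow was 0.90 (edgeR adjusted p = 0.145) and the log2 fold change of Acat1, HFD+STZ versus chow was 0.77 (edgeR adjusted p = 0.595). No label or correlation shows that the numbers pair libraries.

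Directions that changed were of values at most 0.19 in size with all libraries. The largest was the log2 Oxct1/Bdh1 ratio difference in METTL3 versus chow, 0.19, where the SD in chow was 0.85. Bsg in HFD+STZ versus chow was -0.061 with the code range as covariate and -0.00727 to 0.16 over single libraries left out. Over single libraries left out, Bdh1 in METTL3 versus HFD+STZ ran from -0.25 to 0.046, Acat1 in the same comparison from -0.22 to 0.00106 and Slc16a1 in METTL3 versus chow from -0.017 to 0.27. For log2 ratio differences, Oxct1/Bdh1 in METTL3 versus chow was -0.27 with both libraries out and -0.27 to 0.57 over single libraries. Oxct1/Slc16a1 in HFD+STZ versus chow was -0.31 and -0.34 to 0.26, and Acat1/Bdh1 in METTL3 versus HFD+STZ was -0.15 and -0.15 to 0.28. Oxct1/Bdh1 in HFD+STZ versus chow ran from -0.49 to 0.35 and Slc16a1/Bdh1 from -0.23 to 0.10. Each of the 4 genes had at least 532 counts in every library. Calls over all genes in HFD+STZ versus chow went from 25 to 493 with chow replicate 3 and HFD+STZ replicate 1 both left out.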

Other observations

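Ppara, the nuclear receptor for fatty acids that drives ketone synthesis genes in liver, had 609, 195 and 0 counts in the 3 chow libraries. It was at 6.03 to 24.8 CPM in HFD+STZ, and at 19.2, 1.25, 14.8 and 5.38 CPM in METTL3 replicates 1 to 4. The METTL3 libraries split into the same pairs as for Bdh1 but the other way, with replicates 1 and 3 above replicates 2 and 4. Chow replicate 3, at 0 for Ppara, had 15734 genes with a count, against 20672 and 20769 in the other chow libraries.

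Acat2, the cytosolic thiolase of sterol synthesis and a relative of Acat1, averaged 5.55 ± 1.52 (SD, n = 3) CPM in chow, 2.71 ± 1.37 (SD, n = 4) CPM in HFD+STZ and 3.05 ± 1.05 (SD, n = 4) CPM in METTL3. Its log2 fold change for HFD+STZ versus chow was -1.02 (SE 0.41, edgeR adjusted p = 0.359), opposite in sign to that of Acat1 and not past the threshold. Both genes were looked at after their values were seen.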
